A study of Homo sapiens with 24 samples.

Results

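RNA sequencing libraries from BT549 and MDAMB231, 2 human breast cancer cell lines that the series counts among triple-negative lines, were compared for how each gene answered knockdown of ADAR1. Every library came from cells infected for 24 h with a lentivirus that carried a short hairpin RNA and then selected with 2 µg/ml puromycin for 72 h. The 4 groups were BT549 with the ADAR1 hairpin (shADAR1), BT549 with the non-targeting hairpin (shNT), MDAMB231 shADAR1 and MDAMB231 shNT, with 3 biological replicates in each. All 12 libraries of these groups were used, out of 24 libraries of 4 lines in the series. Both arms of both lines carry virus and drug selection, the hairpin sequence is not in the labels, and neither is whether more than 1 hairpin was used. The labels do not say whether replicates were separate infections, so the p-values measure only the spread between these libraries. The quantity compared was the log2 change from shNT to shADAR1 in MDAMB231 minus the same change in BT549, called the interaction below; a positive value means that the change was higher in MDAMB231.

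ADAR1, encoded by ADAR, converts adenosine to inosine in double-stranded RNA. Editing marks the cell's own double-stranded RNA as self, and loss of ADAR1 is known to let such RNA reach the sensors MDA5 and PKR, which start an interferon response and a block of translation. MDM2, named in the series title, is the ubiquitin ligase that keeps p53 low and is itself a p53 target.

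Both lines carried mesenchymal markers, though not the same ones. Of 11 mesenchymal markers, 10 exceeded 1 CPM, counts scaled to the size of the library, on average in BT549 shNT and 6 did so in MDAMB231 shNT. VIM, the intermediate filament vimentin, stood at 2250 CPM in BT549 shNT and 4290 CPM in MDAMB231 shNT, and ZEB1, a repressor of epithelial genes, at 124 and 131 CPM. TWIST1 and TWIST2, both mesenchymal transcription factors, had 0 counts in all 6 MDAMB231 libraries and were expressed in BT549. MDAMB231 had 6 of 14 epithelial markers above 1 CPM, against 1 of 14 in BT549. Among them the keratins KRT8, KRT18 and KRT19 were at 464, 221 and 281 CPM in MDAMB231 shNT, while CDH1, E-cadherin, was near 0 in both lines (0.093 CPM in BT549 and 0.0723 CPM in MDAMB231). Total counts ran from 10370645 in MDAMB231 shNT replicate 1 to 97218217 in BT549 shADAR1 replicate 2. In bulk RNA, fewer cells of a kind and less RNA per cell cannot be told apart.

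The targeted gene fell in both lines. ADAR (ENSG00000160710, chromosome 1, 154582062 to 154627999, minus strand) had 508, 486 and 516 CPM in the shNT arm of BT549 and 129, 113 and 150 CPM in its shADAR1 arm, in replicate order. In MDAMB231 the shNT libraries had 284, 291 and 298 CPM and the shADAR1 libraries 55.3, 64.9 and 69.8 CPM. The arms were far apart in both lines. The log2 fold change was -1.96 (SE 0.0683) in BT549 and -2.20 (SE 0.0705) in MDAMB231. The difference of -0.24 had a 95% confidence interval of -0.44 to -0.04 and an edgeR adjusted p of 0.33 with Benjamini-Hochberg adjustment, so it did not pass the threshold of 0.05. MDM2 (ENSG00000135679) had 33.2, 33.3 and 46.9 CPM in BT549 shNT and 69.7, 72.9 and 71.5 CPM in BT549 shADAR1. Its MDAMB231 levels were 63.4, 59.4 and 73.9 CPM in shNT and 146, 108 and 126 CPM in shADAR1. MDM2 rose in both lines, by 0.94 and 0.93 on the log2 scale, with an interaction of -0.01 and a 95% confidence interval of -0.29 to 0.27.

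A different response passed the threshold for 100 of 18533 genes tested, which is 0.54% of them. In simulated data the same fit made a larger share of false calls than this threshold allows. The change was higher in MDAMB231 for 44 genes (0.237% of those tested) and lower for 56 (0.302%). Without adjustment, 2061 genes had a p under 0.05, where 927 would be 5% of those tested. By comparison, 929 genes (5.01%) passed the threshold for the knockdown effect in BT549, 423 higher (2.28%) and 506 lower (2.73%), and 2210 (11.9%) in MDAMB231, 963 higher (5.2%) and 1247 lower (6.73%). The effect passed in both lines for 574 genes, 61.8% of those called in BT549 and 26% of those called in MDAMB231, and 570 of these moved the same way. Of the 1636 genes called in MDAMB231 but not in BT549, the interaction passed for 63; of the 355 called in BT549 alone, it passed for 21. The other genes called in 1 line alone had no call for the difference itself.

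**Figure D1:**
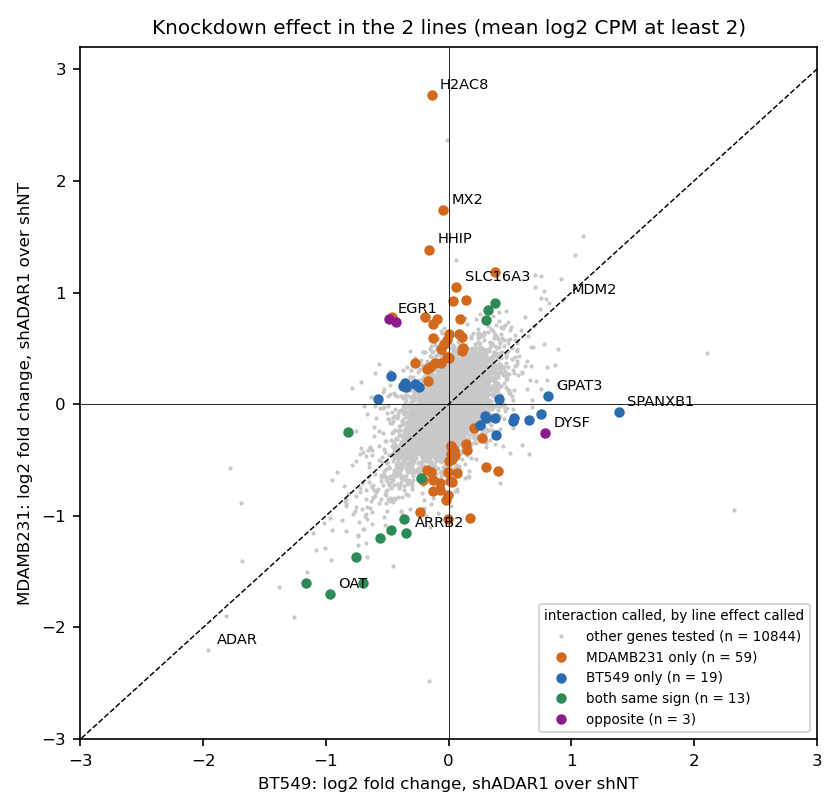
Log2 fold change from shNT to shADAR1 in BT549 (x axis) and MDAMB231 (y axis), 1 point per gene whose mean log2 CPM reached 2; grey points are genes tested without a call, coloured points genes whose interaction passed an adjusted p of 0.05, coloured by the line in which the effect itself passed. ADAR and MDM2 lie near the dashed line of equal change, and the called genes lie away from it, many of them close to the vertical axis, where BT549 changed little. 1 gene lies outside the axes.

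More of the called genes were changed in MDAMB231 than in BT549, and the same held for all genes tested. Over all of them, 1636 were called in MDAMB231 and not in BT549, and 355 in BT549 and not in MDAMB231. The size of the effect was larger in MDAMB231 for 77 of the 100, a share that was not counted over all genes. Of the 100, 63 were called in MDAMB231 and not in BT549 (31 with a higher and 32 with a lower response), 21 in BT549 and not in MDAMB231 (7 and 14), 13 in both lines with the same sign and 3 in both lines with opposite signs. The median absolute interaction of the called genes was 0.63 with a median SE of 0.12. Protein-coding genes made up 96 of the 100 and 81.6% of the genes tested. The starting levels of the called genes also differed between the lines. Their shNT levels differed over 4-fold between BT549 and MDAMB231 for 44 genes, against 20.3% of all tested. Of the 100, 13 had both arms under 5 CPM in MDAMB231 and 12 in BT549, shares that were not counted over all genes. The part of these level differences in the result was not tested. Counting is not stated to use strand, so genes that overlap another gene on the opposite strand are uncertain.

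The smallest interaction p belonged to SLC16A3, a transporter gene. SLC16A3 (ENSG00000141526, chromosome 17, 82228397 to 82261129, plus strand), the lactate exporter MCT4, had 4.35, 4.46 and 5.29 CPM in BT549 shNT and 5.12, 4.48 and 5.13 CPM in BT549 shADAR1. MDAMB231 had 199, 175 and 198 CPM in shNT and 420, 350 and 415 CPM in shADAR1. The BT549 arms overlapped, and every MDAMB231 shADAR1 library lay above every shNT library. SLC16A3 rose in MDAMB231, with a log2 fold change of 1.05 (SE 0.0572), and had 0.06 (SE 0.0773) in BT549, where it was scarce. The interaction of 0.99 (SE 0.0961) had an edgeR adjusted p of 0.000208, the smallest of all genes. ANGPTL4, a secreted inhibitor of lipoprotein lipase, had 6.17, 3.81 and 7.6 CPM in MDAMB231 shNT and 12.3, 5.94 and 12.8 CPM in shADAR1. It rose by 0.77 in MDAMB231 on the log2 scale and its BT549 change was 0.10, at levels of 54.1 to 64.6 CPM in that line (interaction 0.67, edgeR adjusted p 0.0296).

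GLUD1 and OAT, which encode mitochondrial enzymes of amino acid metabolism, fell in both lines and further in MDAMB231. GLUD1 (chromosome 10, 87050486 to 87094866, minus strand), glutamate dehydrogenase, went from 88.3, 88 and 81.3 CPM to 61.6, 63.3 and 60.8 CPM in BT549. In MDAMB231 it went from 180, 164 and 151 CPM to 68.7, 80.7 and 76.3 CPM. The arms did not overlap in either line, and the log2 changes were -0.47 and -1.13 (interaction -0.65, SE 0.1, edgeR adjusted p 0.00809). OAT, ornithine aminotransferase, started at nearly equal levels, 82.1, 86.3 and 78.5 CPM in BT549 shNT and 81.3, 89.1 and 79.9 CPM in MDAMB231 shNT. It ended at 39.6, 42 and 44.5 CPM in BT549 and at 18.1, 32.7 and 26.4 CPM in MDAMB231, all 3 of the latter below all 3 of the former. Its log2 changes were -0.97 and -1.70, an interaction of -0.73 with an edgeR adjusted p of 0.0356. PCYOX1, which breaks down prenylcysteines released from prenylated proteins, also had like levels at the start (95.5 to 101 CPM in BT549 shNT, 93.8 to 108 CPM in MDAMB231 shNT). Of the 2 lines, PCYOX1 fell only in MDAMB231, to 51, 70.3 and 66.8 CPM. BT549 shADAR1 libraries stayed at 91.7 to 94.6 CPM (interaction -0.64, SE 0.0881, edgeR adjusted p 0.00368).

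Among lipid enzymes, 2 acyltransferase genes were called. GPAT3 (ENSG00000138678, chromosome 4, 83535914 to 83605875, plus strand) adds the first acyl chain to glycerol-3-phosphate in glycerolipid synthesis. BT549 had 3.98, 3.81 and 3.4 CPM in shNT and 6.91, 6.72 and 6.02 CPM in shADAR1. In MDAMB231 the level was many times higher and did not separate by arm, with 97.6, 58.5 and 74 CPM in shNT and 95.6, 65 and 79.1 CPM in shADAR1. GPAT3 rose by 0.81 (SE 0.0844) in BT549, against 0.08 (SE 0.0655) in MDAMB231 (interaction -0.74, edgeR adjusted p 0.00547). LPCAT1, which reacylates lysophosphatidylcholine, moved in the other line. It fell in MDAMB231 from 190, 177 and 187 CPM to 131, 139 and 156 CPM, a log2 change of -0.38, with 0.02 in BT549 (interaction -0.40, edgeR adjusted p 0.046). Both are on the list of 56 lipid remodelling genes tested, of which 0 responded higher and 2 lower in MDAMB231, beside 0.237% and 0.302% of all genes. At an unadjusted p under 0.05 in edgeR, 2 of the list were higher and 8 lower, beside 913 and 1148 of all 18533 genes tested. The median interaction of the list was -0.08, against -0.01 over all genes. CYP26B1, which breaks down retinoic acid, fell in MDAMB231 from 33.6, 30.7 and 23.6 CPM to 19.7, 20.6 and 17 CPM. Its BT549 change of 0.40 missed the threshold (edgeR adjusted p 0.0525), and the interaction was -1.0. NMNAT2, an enzyme of NAD synthesis, fell in MDAMB231, with a log2 change of -0.56, and had 0.31 in BT549, which did not pass; its interaction was -0.87.

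HHIP, NOG, INHBA and DKK3, which encode secreted antagonists or ligands, responded higher in MDAMB231. HHIP (ENSG00000164161, chromosome 4, 144646021 to 144745271, plus strand), which binds Hedgehog ligands and limits their action, had 16.9, 4.21 and 12.2 CPM in MDAMB231 shNT and 42.1, 11.2 and 32.4 CPM in MDAMB231 shADAR1. The arms overlapped because replicate 2 was low in both, but each pair went up by 1.32 to 1.41 on the log2 scale. BT549 had 1.77, 1.37 and 1.51 CPM in shNT and 1.25, 1.45 and 1.43 CPM in shADAR1. The interaction for HHIP was 1.54 (SE 0.193, edgeR adjusted p 0.00315). NOG, noggin, which binds BMP ligands, rose in MDAMB231 from 32.7, 16.1 and 23.9 CPM to 73.5, 40.1 and 50.8 CPM. In BT549 NOG had 12.9, 13.4 and 7.87 CPM against 15.2, 14.6 and 14.1 CPM, a change of 0.38 that missed the threshold; the interaction was 0.81 (edgeR adjusted p 0.034). INHBA, the subunit of activin A, had 2.94, 0.479 and 2.78 CPM in MDAMB231 shNT and 6.22, 1.13 and 4.75 CPM in shADAR1, against 154 to 176 CPM over both arms of BT549. INHBA rose by 0.93 in MDAMB231 (interaction 0.89, edgeR adjusted p 0.00809). DKK3, of the Dickkopf family of secreted proteins, rose by 0.72 in MDAMB231 from levels of 2.37 to 2.66 CPM (interaction 0.84). INHBA and NOG were the 2 of 30 TGF-beta pathway genes with a higher response in MDAMB231, and 0 had a lower one, beside 0.237% and 0.302% of all genes. At an unadjusted p under 0.05 in edgeR, 6 of the list were higher and 3 lower, beside 913 and 1148 of all 18533 genes tested. The median interaction of the list was 0.07, against -0.01 over all genes.

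**Figure D2:**
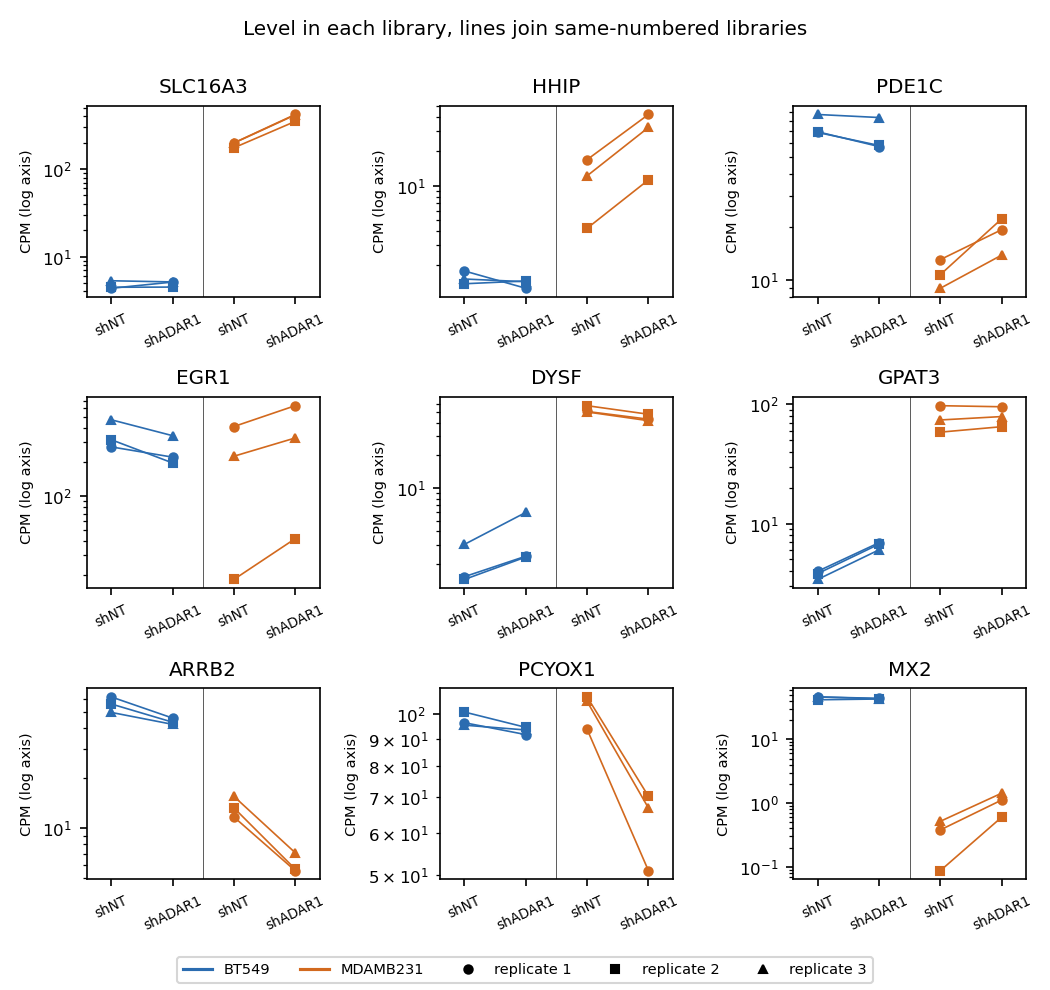
CPM per library (log axis) of 9 genes in the 4 groups, with lines joining the shNT and shADAR1 libraries of the same replicate number (circle 1, square 2, triangle 3); blue is BT549 and orange MDAMB231. SLC16A3, HHIP, PDE1C and MX2 climb in MDAMB231 only, DYSF and GPAT3 climb in BT549 only, PCYOX1 drops in MDAMB231 only, ARRB2 drops in both and more steeply in MDAMB231, and the EGR1 pairs run in opposite directions although replicate 2 of MDAMB231 sits far below the other two.

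Named genes of the matrix and of proteolysis moved in both directions. LOXL2, which cross-links collagen and elastin, fell in BT549 from 883, 817 and 906 CPM to 652, 609 and 781 CPM and in MDAMB231 from 341, 304 and 290 CPM to 134, 156 and 167 CPM. The log2 changes were -0.36 and -1.03 (interaction -0.67, edgeR adjusted p 0.0204). PLAT, tissue plasminogen activator, fell in BT549 only, from 40.6, 41.3 and 33.1 CPM to 25.9, 27.7 and 23.4 CPM. In MDAMB231 PLAT had 221, 227 and 212 CPM in shNT and 228, 200 and 257 CPM in shADAR1, which overlap (interaction 0.62, edgeR adjusted p 0.0127). COL4A2, a chain of basement membrane collagen, rose in MDAMB231 from 269, 260 and 262 CPM to 381, 345 and 398 CPM, with an interaction of 0.39. The metalloproteases ADAMTS6 and ADAMTS14 rose in MDAMB231 by 0.93 and 0.78 (interactions 0.79 and 1.24). ADAMTS14 stood at only 0.949, 0.828 and 4.17 CPM in MDAMB231 shNT and 3.35, 2.01 and 5 CPM in shADAR1, and these overlap. Without MDAMB231 replicate 3 the ADAMTS14 interaction was 1.91, the 1 of 6 fits with a replicate left out in which it stayed called.

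DYSF (ENSG00000135636, chromosome 2, 71453722 to 71686768, plus strand), dysferlin, a protein of membrane repair, was called in opposite directions. It rose in BT549 from 1.53, 1.44 and 3.03 CPM to 2.36, 2.32 and 5.97 CPM, where the arms overlap but all 3 pairs went up. It fell in MDAMB231 from 50.8, 57.4 and 50.3 CPM to 43.1, 47.9 and 41.8 CPM, where the arms do not overlap. The log2 changes were 0.79 (SE 0.112) and -0.26 (SE 0.0775), and the interaction was -1.04 (edgeR adjusted p 0.00315). UNC13A, which primes synaptic vesicles for release, was called in the other sense, falling in BT549 from 99.2, 93.9 and 108 CPM to 77.8, 69.4 and 75.8 CPM and rising in MDAMB231. All of its MDAMB231 libraries were under 1 CPM, with 4, 22 and 21 counts in shNT and 10, 40 and 37 in shADAR1, so the interaction of 1.17 rests on few reads.

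ARRB2, beta-arrestin 2, which uncouples and internalises receptors, fell in both lines. BT549 went from 61.8, 56 and 49.8 CPM to 46.1, 43.5 and 42.2 CPM and MDAMB231 from 11.7, 13.2 and 15.5 CPM to 5.54, 5.66 and 7.1 CPM. The log2 changes were -0.34 and -1.16 (interaction -0.81, SE 0.114, edgeR adjusted p 0.00386). RAB11FIP2, an effector of Rab11 in recycling endosomes, fell from 14.5, 17.2 and 18.8 CPM to 10.7, 9.23 and 11.3 CPM in BT549. Its MDAMB231 libraries went from 28, 23.3 and 23.9 CPM to 8.21, 7.8 and 8.37 CPM, with log2 changes of -0.70 and -1.61 and an interaction of -0.91. The adhesion molecule CLMP fell only in MDAMB231, from 30.3, 19.4 and 25.6 CPM to 17.6, 13.3 and 17.5 CPM, with 111 to 113 CPM in BT549 shNT and 116 to 119 CPM in BT549 shADAR1 (interaction -0.68). SYNPO, the actin-associated synaptopodin, fell in MDAMB231, with a log2 change of -0.81 there and -0.01 in BT549. SEPTIN5, a filament-forming GTPase, and TUB, tubby, fell in MDAMB231, with log2 changes of -1.02 and -0.85, but their MDAMB231 levels were 0.777 to 3.31 CPM in all libraries. PDE1C, a phosphodiesterase of cyclic nucleotides, rose in MDAMB231 from 13, 10.7 and 8.94 CPM to 19.2, 22.2 and 13.8 CPM, with a change of -0.19 in BT549 that did not pass (interaction 0.98, edgeR adjusted p 0.00315).

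GCNT1, which branches O-linked glycans, and ARHGAP27 rose in BT549 only. GCNT1 went from 4.47, 5.74 and 6.05 CPM to 7, 8.14 and 10.7 CPM (interaction -0.79). ARHGAP27 was at 0.476 to 1.18 CPM in BT549 and 46.1 to 62.7 CPM in MDAMB231 (interaction -0.84). FOXP1, a forkhead transcription factor, rose in BT549 from 33.1, 35.7 and 45.2 CPM to 46.5, 46 and 54.9 CPM, all 3 pairs higher, and had a change of -0.12 in MDAMB231 that did not pass (interaction -0.50, edgeR adjusted p 0.0137). MEIS3, a homeobox factor, fell in MDAMB231, with a log2 change of -1.02 at 0.583 to 3.56 CPM. Its interaction, also -1.02, was -0.59 and not called without MDAMB231 replicate 3, and it stayed called in 1 of 6 fits that left out a replicate. CCND3, cyclin D3, rose in both lines, by 0.30 in BT549 and 0.76 in MDAMB231, where it went from 138, 124 and 140 CPM to 276, 191 and 222 CPM (interaction 0.46, edgeR adjusted p 0.0444).

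The largest positive interactions among the named genes were those of H2AC8 and MX2, both abundant in BT549 and nearly silent in MDAMB231. H2AC8, a replication-dependent H2A histone gene, had 77 to 145 CPM in BT549 and 0, 4 and 2 counts in MDAMB231 shNT against 4, 33 and 11 in shADAR1. Its interaction of 2.91 had an SE of 0.556, and as H2A genes are near-identical its reads may be split among copies. MX2, an interferon-induced GTPase, had 41.7 to 46.3 CPM in every BT549 library. In MDAMB231 it had 4, 4 and 24 counts in shNT and 23, 32 and 62 in shADAR1, a rise of 1.74 on the log2 scale (interaction 1.78, edgeR adjusted p 0.00809). Markers of BT549 were read in the same libraries. TWIST1 had 3944 to 12194 counts in the BT549 libraries and 0 in all 6 MDAMB231 libraries. SPARC, a matrix glycoprotein with 116740 to 292045 counts in BT549, had 18, 17 and 26 counts in MDAMB231 shNT and 18, 23 and 32 in shADAR1. CDH2, N-cadherin, had 2, 16 and 10 counts in MDAMB231 shNT and 24, 30 and 28 in shADAR1, against 9127 to 24498 counts in BT549. In the reverse direction, SPANXB1, a cancer-testis gene with near-identical copies, had 7, 6 and 8 counts in BT549 shNT and 17, 24 and 31 in BT549 shADAR1, and 781 to 5221 counts in MDAMB231 (interaction -1.46). KRT19 counted 0 in each of 3 BT549 shNT libraries and 2, 8 and 2 in those with the ADAR1 hairpin. Other epithelial markers were less clear there: KRT18 had 0, 1 and 0 counts against 2, 0 and 12, and EPCAM 0, 0 and 0 against 0, 2 and 1. KRT8 averaged 0.667 CPM in BT549 shNT and 0.724 CPM in BT549 shADAR1. The part of such low reads in these interactions was not tested.

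Immediate early and AP-1 genes had the most called members of any list. The list holds mainly transcription factors and feedback inhibitors. Many, though not all, are known to be switched on by growth factor or stress signals through the ERK and related kinases, some within minutes. Of 27 tested, 8 responded higher in MDAMB231, namely EGR1, JUND, SPRY2, SPRY4, DUSP6, DUSP5, IER2 and JUNB, and 0 lower, beside 0.237% and 0.302% of all genes. At an unadjusted p under 0.05 the counts were 19 higher and 1 lower, beside 913 higher and 1148 lower of the 18533 genes tested. The median interaction of the list was 0.45, against -0.01 over all genes, and it was positive for 24 of 27. All 3 paired differences in MDAMB231 lay above those in BT549 for 18 members and below them for 1, against 1453 and 1864 of all genes tested. In BT549, 0 members rose and 9 fell (FOSL1, JUN, EGR1, DUSP4, DUSP5, DUSP6, SPRY2, SPRY4 and ETV5), beside 2.28% and 2.73% of all genes. In MDAMB231, 10 rose (JUNB, JUND, EGR1, ATF3, MYC, IER2, DUSP1, ETV4, KLF4 and KLF6) and 3 fell (FOSL1, DUSP6 and KLF2), beside 5.2% and 6.73% of all genes. All of these members were picked by their values: EGR1, JUND and SPRY2 by the naming rule, which takes the smallest interaction p of each list, and the others after their values were seen. The list itself was chosen with earlier results of these data known.

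EGR1 (ENSG00000120738, chromosome 5, 138465490 to 138469315, plus strand), a zinc finger factor, had 273, 316 and 474 CPM in BT549 shNT and 221, 197 and 343 CPM in BT549 shADAR1. MDAMB231 had 412, 18.4 and 225 CPM in shNT and 631, 42.1 and 327 CPM in shADAR1. The arms overlapped in both lines, since replicates differed widely, but each BT549 pair went down, with log2 differences of -0.30, -0.68 and -0.47, and each MDAMB231 pair went up, with 0.61, 1.20 and 0.54. The interaction was 1.24 (SE 0.151, edgeR adjusted p 0.00595). It lost its call in the edgeR fit of all 24 libraries (1.24, SE 0.288, adjusted p 0.123), without BT549 replicate 3 (1.25, adjusted p 0.0665) and without MDAMB231 replicate 1 (1.32, adjusted p 0.087). JUND, an AP-1 subunit, rose in MDAMB231 from 66.9, 44.4 and 64.3 CPM to 109, 65.9 and 98.5 CPM and had 153, 132 and 178 CPM against 153, 136 and 207 CPM in BT549 (interaction 0.54, edgeR adjusted p 0.00831). SPRY2, an inhibitor of receptor tyrosine kinase signalling, fell in BT549 from 23.4, 24 and 25.8 CPM to 17.4, 17.9 and 21.5 CPM. Its MDAMB231 libraries had 88.8, 66.4 and 71.5 CPM in shNT and 98.8, 76.4 and 77.9 CPM in shADAR1, a change of 0.16 that did not pass (interaction 0.53). DUSP6, the phosphatase that switches off ERK, fell in both lines, with log2 changes of -0.82 in BT549 and -0.25 in MDAMB231, so its positive interaction is a smaller fall. The count of 8 depended on the libraries. It was 2, 1 and 4 without BT549 replicate 1, 2 or 3, and 2, 2 and 10 without MDAMB231 replicate 1, 2 or 3. It was 0 without the replicate block, with a median interaction of 0.43 in that fit.

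**Figure D3:**
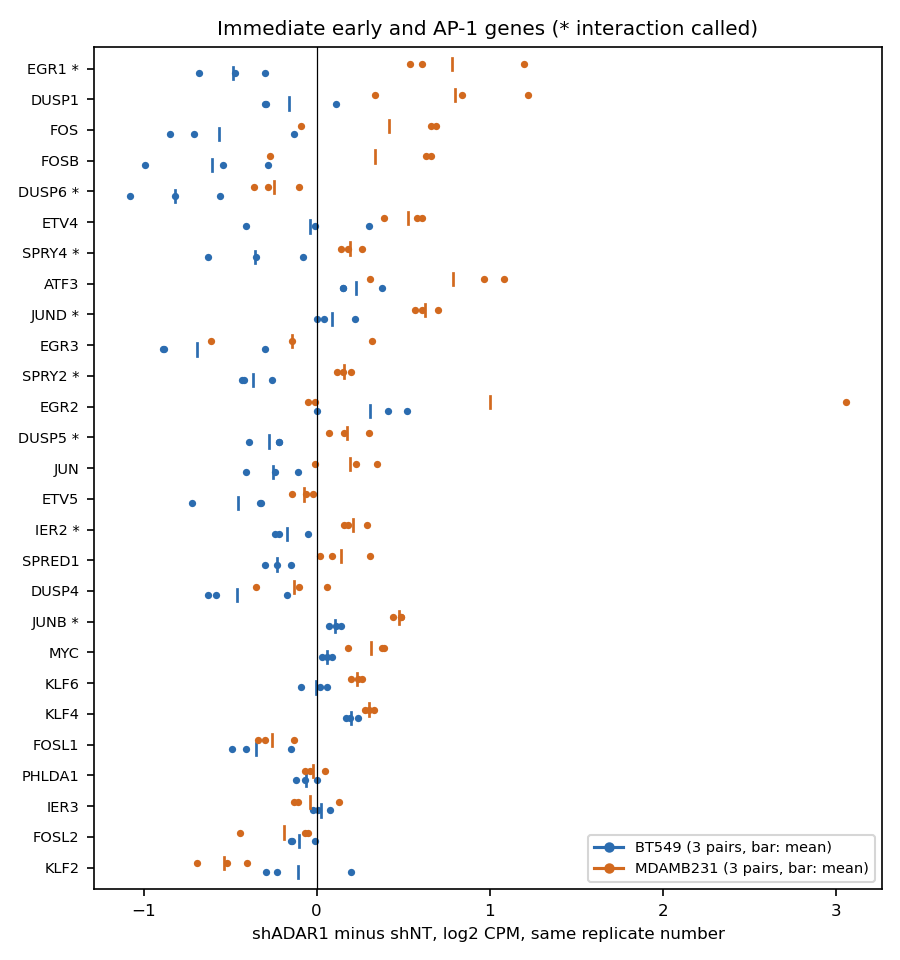
Difference in log2 CPM between shADAR1 and shNT libraries of the same replicate number (x axis) for the 27 immediate early and AP-1 genes, ordered by interaction; each point is 1 pair, the bar the mean of 3, blue BT549 and orange MDAMB231, and an asterisk marks an interaction past the threshold. In most rows the orange points lie to the right of the blue ones; the 8 marked genes show no overlap between the lines, and EGR2 has 1 MDAMB231 pair at 3.06 beside pairs at -0.01 and -0.05.

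Promoter windows were read for the called genes. The CArG box, the site read by serum response factor and known in several immediate early genes, was added to the motifs after the calls were seen. The windows run from 250 bases before to 50 after the RefSeq transcription start (GRCh38.p14) and matched 12620 genes tested, 33 of the 44 with a higher and 43 of the 56 with a lower response in MDAMB231. A CArG box on either strand lay in 4 of the 33 (12.1%), EGR1, RND3, RCAN1 and EIF5AL1, and in 1 of the 43 (2.33%), AKAP12, against 1.16% of the windows of all genes tested. The box was searched, and RND3, RCAN1, EIF5AL1 and AKAP12 were named, after the values were seen, and EIF5AL1 has a near-identical parent gene, EIF5A, which makes its counts uncertain. Of the windows shown, those of EGR1, RND3, RCAN1 and AKAP12 hold the box in capitals, printed 5′ to 3′ on the strand of the gene. EGR1 is at chr5:138465229-138465528 (plus), with boxes that begin 105 and 83 bases before the start, RND3 at chr2:150487646-150487945 (minus), RCAN1 at chr21:34615064-34615363 (minus) and AKAP12 at chr6:151239717-151240016 (plus).
EGR1: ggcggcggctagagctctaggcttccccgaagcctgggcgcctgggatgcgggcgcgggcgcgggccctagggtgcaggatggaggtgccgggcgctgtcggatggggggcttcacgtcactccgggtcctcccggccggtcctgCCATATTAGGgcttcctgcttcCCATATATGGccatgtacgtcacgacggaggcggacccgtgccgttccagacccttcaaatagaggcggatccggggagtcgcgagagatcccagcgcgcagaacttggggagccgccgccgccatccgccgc
RND3: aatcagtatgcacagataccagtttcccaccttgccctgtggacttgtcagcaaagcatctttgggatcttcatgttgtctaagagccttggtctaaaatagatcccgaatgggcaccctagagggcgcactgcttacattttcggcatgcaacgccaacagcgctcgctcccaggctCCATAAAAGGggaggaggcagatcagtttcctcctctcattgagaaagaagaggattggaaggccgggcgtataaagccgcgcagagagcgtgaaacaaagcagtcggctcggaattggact
RCAN1: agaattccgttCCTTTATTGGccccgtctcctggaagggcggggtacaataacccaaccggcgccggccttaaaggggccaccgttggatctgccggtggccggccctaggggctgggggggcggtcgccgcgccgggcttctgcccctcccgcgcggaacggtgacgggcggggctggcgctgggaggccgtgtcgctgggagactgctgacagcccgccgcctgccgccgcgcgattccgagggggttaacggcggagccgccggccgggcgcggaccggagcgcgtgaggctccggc
AKAP12: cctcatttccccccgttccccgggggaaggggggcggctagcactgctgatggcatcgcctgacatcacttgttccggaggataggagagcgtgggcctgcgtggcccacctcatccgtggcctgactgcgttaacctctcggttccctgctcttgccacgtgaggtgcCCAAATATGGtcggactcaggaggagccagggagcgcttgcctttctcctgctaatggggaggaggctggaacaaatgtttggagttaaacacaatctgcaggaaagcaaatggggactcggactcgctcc
RND3 and the calcineurin inhibitor RCAN1 responded higher in MDAMB231, and AKAP12, a kinase anchoring protein, lower. Of the 27 immediate early genes, 19 had a window and EGR1 was the 1 with a box (5.26%). Only 1 window per gene was read, so a box farther upstream or at another start of the gene was not seen. The other motifs searched on both strands were near the share in all genes tested or rare. ACGTG, the core of the hypoxia response element, lay in 24.2% of windows with a higher and 20.9% with a lower response (25.5% of those tested). CACGTG, an E-box that contains ACGTG, lay in 9.09% and 6.98% (9.39%), and TGACTCA, read by AP-1, in 6.06% and 4.65% (3.45%). TGATGCAAT, an element read by ATF4 and CEBP proteins, and the NF-kB site lay in 0 of either set.

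The remaining lists had few called members, beside 0.237% of all genes tested with a higher and 0.302% with a lower response in MDAMB231. MX2 was the 1 of 39 interferon-stimulated genes called for the interaction, and the list's median interaction was -0.13, with a median change of 0.04 in BT549 and -0.12 in MDAMB231. The median interaction was -0.23 without MDAMB231 replicate 2 and -0.10 without MDAMB231 replicate 1. At an unadjusted p under 0.05 in edgeR, 2 of these genes responded higher and 7 lower in MDAMB231. Over all 18533 genes tested, 913 were higher and 1148 lower at that p, the background also of the unadjusted counts that follow. No member was called among 27 p53 target genes (3 higher and 6 lower at an unadjusted p under 0.05 in edgeR), 30 integrated stress response genes (3 and 3), 29 ferroptosis suppressor genes (2 and 5), 25 cholesterol synthesis genes (0 and 3), 23 inflammatory cytokines and chemokines (1 and 1) or 27 genes of RNA editing and double-stranded RNA sensing (1 and 3). Over all 18533 genes, DESeq2 called more than edgeR, 105 higher and 142 lower. It called 1 higher and 2 lower of the p53 targets and 0 and 1 of the integrated stress response genes. Of the ferroptosis suppressors it called 0 and 1, and of the other 3 lists 0. Of 28 ferroptosis promoter genes 1, LPCAT1, responded lower, and 1 each responded higher of 24 glycolysis genes (SLC16A3), 28 hypoxia response genes (ANGPTL4), 52 matrix and adhesion genes (COL4A2) and 50 cell cycle genes (CCND3). DESeq2 called 1 higher and 2 lower of the ferroptosis promoters, 2 and 1 of the glycolysis genes, 1 and 1 of the hypoxia response genes, 1 and 1 of the matrix genes and 2 and 0 of the cell cycle genes. Hypoxia response genes had 7 higher and 0 lower in BT549, 10 higher and 4 lower in MDAMB231, and medians of 0.19 and 0.24; over all genes the shares were 2.28% and 2.73% in BT549 and 5.2% and 6.73% in MDAMB231.

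**Figure D4:**
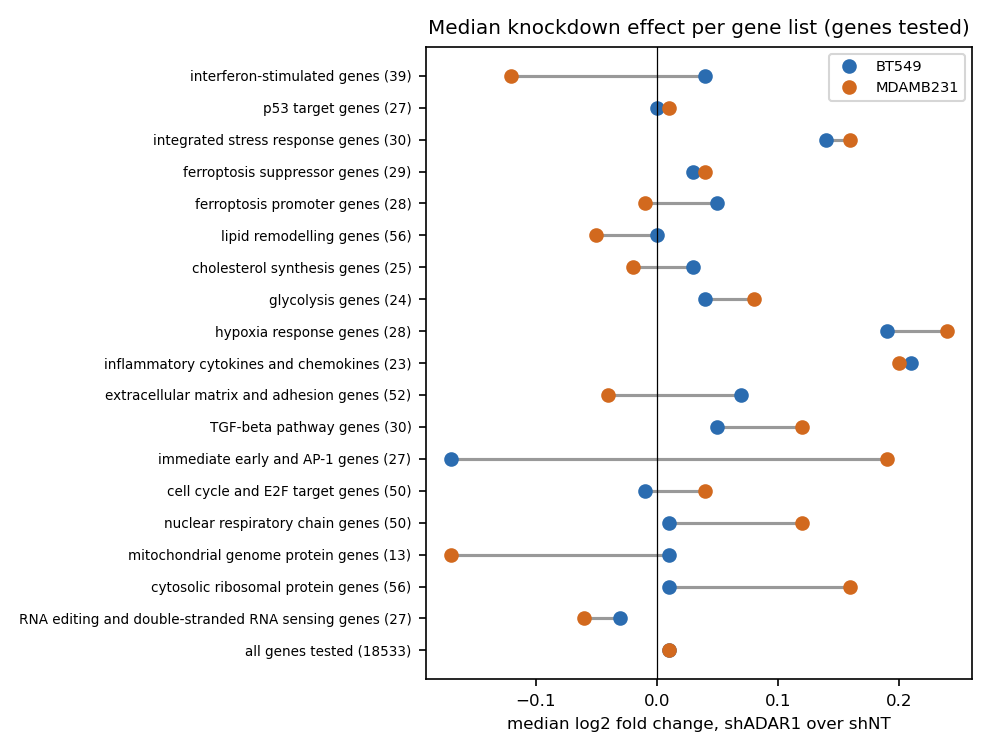
Median log2 fold change from shNT to shADAR1 over the tested genes of each list (number in brackets), blue for BT549 and orange for MDAMB231, with a grey line between the medians. The widest gap is that of the immediate early and AP-1 genes, at -0.17 in BT549 and 0.19 in MDAMB231, and the medians over all genes coincide at 0.01.

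How many genes passed the interaction threshold varied with the libraries and the model. With both arms of 1 replicate left out, the count was 22, 12 or 49 without BT549 replicate 1, 2 or 3 and 34, 27 or 211 without MDAMB231 replicate 1, 2 or 3, beside 100 with all. Of the 100 genes, the sign was the same in each of these fits. It could hardly change, because for 99 of the 100 all 3 paired differences in MDAMB231 lay above, or all below, those in BT549. The kept sign is therefore not separate support. Of the 38 called genes with full values above, 9 stayed called in all 6 (SLC16A3, HHIP, PDE1C, DYSF, PCYOX1, CLMP, ARRB2, CYP26B1 and MX2). GPAT3, GLUD1, INHBA, SYNPO and SEPTIN5 stayed called in 5 of 6, and EGR1, JUND, PLAT and RAB11FIP2 in 4. OAT, SPRY2, NMNAT2, DKK3, FOXP1 and H2AC8 did so in 3, and ANGPTL4, LOXL2, NOG and SPANXB1 in 2. LPCAT1, ADAMTS6, ADAMTS14, ARHGAP27, CCND3, GCNT1, MEIS3 and TUB did so in 1, and COL4A2 and UNC13A in 0. In the fit without the replicate block 0 genes passed and 728 had an unadjusted p under 0.05 in edgeR, and the same fit called 96 genes in BT549 and 434 in MDAMB231.

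**Figure D5:**
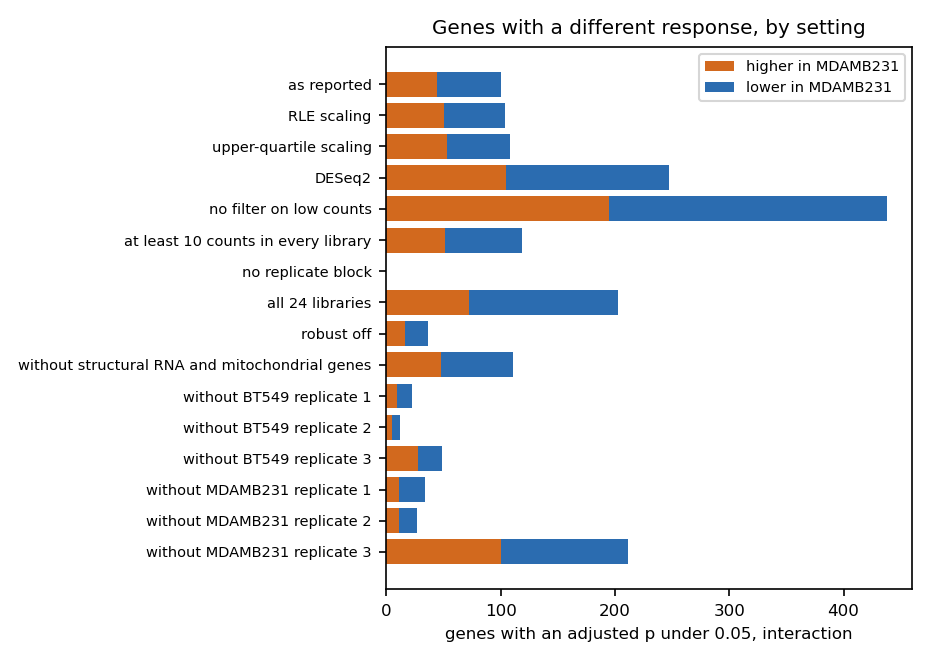
Number of genes whose interaction passed an adjusted p of 0.05 (x axis) under each setting (rows), stacked by a higher (orange) or lower (blue) response in MDAMB231. The count ran from 0 without the replicate block to 438 without a filter on low counts, beside 100 as reported.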

How the data were processed

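RNA was sequenced after removal of ribosomal RNA, per the labels' protocols, and 12 libraries of BT549 and MDAMB231 were analysed. The deposited files hold whole-number read counts for 37416 genes, CPM (counts over the library's total, largest difference 4.7e-11) and RPKM (CPM per kilobase of gene length), per the file headers; the deposited CPM and RPKM values entered no test. The submitters' processing notes name bcl2fastq, STAR, Subread, featureCounts and edgeR; the genome build, annotation and strand setting are not given in the sources used here. Coordinates are the files' own, and 31357 of 34265 genes found in GENCODE 29 (GRCh38) had its start and end. Symbols came from a name table (33972 genes).

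The counts were filtered with filterByExpr over the 4 groups (18533 genes left), scaled by TMM (factors 0.963 to 1.05) and fitted with edgeR 4.0.16 (R 4.3.3; robust quasi-likelihood F test, 2-sided). The model had 6 blocks (line and replicate number) and 1 shADAR1 effect per line, with 4 residual degrees of freedom. P-values were adjusted by Benjamini-Hochberg over the 18533 genes (threshold 0.05); SE came from the fold change and F. CPM in the text are TMM-scaled. The fit was tested on simulated data with 100 genes changed 2-fold and 100 changed 1.5-fold among 18160 tested. It called 96 and 80 of these and made 21 false calls, so the share of false calls was above the nominal rate of the threshold. No 2 replicates agreed within sampling noise (lowest chi-square over its degrees of freedom 11.1). The same-numbered arms deviated together from their group means (correlations 0.185, 0.197 and 0.32 in BT549; 0.235, 0.417 and 0.185 in MDAMB231), so the numbers were taken to pair the arms.

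The lines, the gene lists and the tests were chosen with earlier results of these data known. Named genes were ADAR and MDM2; from called genes whose mean log2 CPM reached 2, with separated paired differences, the 12 largest interactions each way, the 6 smallest p and the 5 smallest p of each response class; and up to 3 called genes per list. The alternatives were DESeq2 1.42.0, scaling by RLE or upper quartile, no filter, a minimum of 10 counts per library, no replicate block, all 24 libraries, no robust fit, no structural RNA or mitochondrial genes, and omission of each replicate pair. The CArG box and the recount of the immediate early list under each alternative were added after seeing the data.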

Additional observations from a re-analysis of the deposited data

Results flagged for a closer look

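The response to the hairpin differed between the lines by the test of the difference itself (edgeR interaction, Benjamini-Hochberg adjusted p under 0.05) for the 38 called genes below, given as interaction log2 fold changes, MDAMB231 minus BT549. Higher responses in MDAMB231 were those of H2AC8 (2.91), MX2 (1.78), HHIP (1.54), EGR1 (1.24), ADAMTS14 (1.24), UNC13A (1.17), SLC16A3 (0.99), PDE1C (0.98), INHBA (0.89), DKK3 (0.84), NOG (0.81), ADAMTS6 (0.79), ANGPTL4 (0.67), PLAT (0.62), JUND (0.54), SPRY2 (0.53), CCND3 (0.46) and COL4A2 (0.39). Lower responses were those of SPANXB1 (-1.46), SEPTIN5 (-1.19), DYSF (-1.04), MEIS3 (-1.02), CYP26B1 (-1.0), RAB11FIP2 (-0.91), NMNAT2 (-0.87), ARHGAP27 (-0.84), TUB (-0.83), ARRB2 (-0.81), SYNPO (-0.81), GCNT1 (-0.79), GPAT3 (-0.74), OAT (-0.73), CLMP (-0.68), LOXL2 (-0.67), GLUD1 (-0.65), PCYOX1 (-0.64), FOXP1 (-0.50) and LPCAT1 (-0.40).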

How the results depend on the processing

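The count of genes with a different response (100) was 104 with RLE and 108 with upper-quartile scaling, 111 without structural RNA and mitochondrial genes and 119 when each library needed 10 counts. It was 247 with DESeq2, 438 with no filter on low counts, 203 with all 24 libraries and 36 without the robust fit; the cause was not tested. Leaving out 1 replicate pair gave 12 to 211 genes for the interaction, 233 to 1345 for the BT549 effect and 1146 to 2227 for the MDAMB231 effect, with fewer samples in each fit. Without the replicate block the counts were 0, 96 and 434; of the 100 genes, 74 then had an unadjusted p under 0.05 and all 100 kept their sign. Each of the 100 kept its sign in every alternative in which it was tested. All alternatives reuse libraries that gave the calls, so the kept signs are not separate support. Those still called numbered 98 with RLE, 99 with upper-quartile scaling, 98 with DESeq2, 91 with all 24 libraries, 35 without the robust fit, and 12 to 79 without 1 pair. The immediate early count (8) was 8 with RLE, 9 with upper-quartile scaling, 11 with DESeq2, 17 with no filter, 9 with at least 10 counts, 4 without the robust fit, 8 with all 24 libraries (without EGR1) and 0 without the replicate block, and ran from 1 to 10 without 1 pair. ADAR's interaction ran from -0.32 to -0.16 and was never called. MDM2's, at -0.01, changed sign with DESeq2 (0.00) and without the replicate block (0.03), and ran from -0.18 to 0.10 without 1 pair; none of these was called. Depth limits the genes under 1 CPM in 1 line, of which the called set held 4 in BT549 and 5 in MDAMB231.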

Other observations

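Genes of the translation and respiration machinery shifted by small amounts. Of 56 cytosolic ribosomal protein genes, 55 had a positive interaction (median 0.14), as did 9104 of all 18533 genes tested. None passed the threshold for it in edgeR, with 11 higher and 0 lower at an unadjusted p under 0.05, beside 913 and 1148 of all genes. In MDAMB231 14 rose and in BT549 0, beside 5.2% and 2.28% of all genes. DESeq2 called 1 of the 56, beside 247 of all 18533 genes in either direction. Without MDAMB231 replicate 1, whose shNT library was the shallowest, 41 were positive and the median was 0.06; without BT549 replicate 1 it was 0.08, and without MDAMB231 replicate 3 it was 0.26, with 55 positive and 1 called. Nuclear genes of the respiratory chain had a median interaction of 0.08, positive in 40 of 50, with 6 rising in MDAMB231 and 0 in BT549. That median was 0.01 (27 positive) without BT549 replicate 1, 0.03 (29 positive) without MDAMB231 replicate 1, 0.13 without BT549 replicate 3 and 0.18 without MDAMB231 replicate 3. The 13 protein genes of the mitochondrial genome had the opposite sign, with 0 of 13 positive and a median of -0.17. Their median was -0.34 without BT549 replicate 3 and -0.07 without MDAMB231 replicate 3. None passed the threshold, 0 had an unadjusted p under 0.05 in edgeR, and DESeq2 called 0. The edgeR fit with no filter on low counts called 3 lower, beside 243 of its 29337 genes.

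In the other lines of the series, from the fit of all 24 libraries, some of the named genes moved in the same direction as in MDAMB231 and others in the opposite one. OAT changed by -0.51 in HCC1806 and -0.42 in MDAMB468 (edgeR adjusted p 0.0118 and 0.0441), GLUD1 by -0.28 and -0.33 (0.0121 and 0.0047) and RAB11FIP2 by -0.57 and -0.67 (0.00136 and 0.000342). PCYOX1 changed by -0.23 and -0.26 in the same lines (edgeR adjusted p 0.0444 and 0.0239). JUND changed by 0.33 and 0.38 and INHBA by 0.52 and 0.56, all past the threshold in that fit. SYNPO changed by 0.65 in HCC1806 (edgeR adjusted p 0.000675) and COL4A2 by -0.21 (0.0318), against -0.81 and 0.51 in MDAMB231. SLC16A3, the gene with the smallest interaction p, changed by 0.04 and -0.05, and neither passed. DYSF changed by -0.11 in HCC1806 and 0.50 in MDAMB468, and only the latter passed (edgeR adjusted p 0.000298). Of the 27 immediate early and AP-1 genes, 7 rose and 0 fell in HCC1806 (median 0.20), and 4 rose and 1 fell in MDAMB468 (median 0.10). Over all 21352 genes of that fit, 476 were called in HCC1806 and 390 in MDAMB468, in either direction. Differences between these lines and BT549 or MDAMB231 were not tested here.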
